A study of Danio rerio with 10 samples.

Results

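The long noncoding transcripts that could be read well in these libraries were the genes annotated as lincRNA (long intergenic noncoding RNA) or antisense whose mean level reached 5 CPM, counts in every 1000000 of a library's total. There were 53 of them, 45 lincRNA and 8 antisense, among 32266 genes in the authors' deposited table. The minimum was applied to the mean of all 10 libraries, so it did not use the genotype. Polyadenylated RNA had been sequenced from pools of 10 whole zebrafish embryos at 33 hours post fertilization. The mutant group, 5 pools, was rbpms2a-/-;rbpms2b-/-, homozygous for mutations in both genes for Rbpms2, a protein that binds RNA in heart and other muscle cells. The control group, 5 pools, carries the genotype label wt, and the design text calls these embryos siblings of the mutants, whose own genotypes are not given. Mutants had been picked by eye before pooling. Both groups carry the replicate numbers 1, 2, 3, 4 and 6, whose meaning no label gives.

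Long noncoding RNAs are transcribed and usually spliced and polyadenylated like messenger RNAs but are not known to encode a protein. A lincRNA lies between coding genes, and an antisense transcript runs opposite to a gene that it overlaps. Many are made in few cell types and at low levels, and some act on neighbouring genes, on nuclear bodies or on microRNAs, whereas most have no known function. Very few zebrafish lincRNAs have a named mammalian counterpart.

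Total counts per library were 21.5 to 36.0 M (M, 1000000 counts), and control 6 was the smallest. All 45 pairs of libraries differed by more than sampling noise, with a chi-square of 5.01 to 64.5 per degree of freedom. Libraries that shared a number deviated together, with correlations of 0.54 to 0.60 over all 20802 tested genes. Of 20 markers of embryonic tissues, 19 were in the table, and the lowest value of any in any library was 4.89 CPM (col9a1a, a cartilage and notochord collagen). The targeted rbpms2a averaged 5.25 ± 1.09 CPM in control pools against 3.17 ± 0.585 CPM in mutant pools (n = 5 each, SD), with ranges apart. Its partner rbpms2b averaged 14.2 ± 3.71 and 15.4 ± 4.63 CPM (n = 5 each, SD) in overlapping ranges, and a mutant transcript can persist.

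Few noncoding genes were abundant. Of 1610 lincRNA and antisense genes in the table, 386 had no count in any library, and 3.29% reached 5 CPM, against 51.5% of 25089 protein-coding genes. The 53 lay between 5.10 and 775 CPM with a median of 11.7 CPM, and all 53 passed the filter on low counts. Their lengths ran from 707 to 13525 bases with a median of 1747. Just above the minimum stood AL928854.1 at 6.10, CR388373.2 at 5.90 and AL928650.3 at 5.10 CPM. Just below it stood AL840638.1 at 4.98, CU929451.2 at 4.96 and CR854838.1 at 4.90 CPM. Reads shared by several loci had been divided among them. Of the 53, 15 had whole counts in every library, within 1e-06 of a whole number, and 8 had whole counts in none. Of the 13227 genes of at least 5 CPM, 5052 had whole counts in every library and 1048 in none. Library chemistry kept the strand, but whether counting used it is not stated, so reads of an antisense member and of the gene it overlaps may not be separated.

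The annotation of some members has since changed. A table of gene IDs and symbols held 46 of the 53, most of them under clone-based names. In RefSeq's table for the assembly GRCz12tu, 16 were found, as 11 lncRNA, 4 protein-coding and 1 miscellaneous RNA. The protein-coding records were CR381618.1, now znf469, a zinc finger gene, CU467961.1, now mast4, a kinase gene, CU693502.1, now cbfa2t2, a transcriptional corepressor gene, and si:ch211-39i2.2. That last gene has the synonym redd2, in mammals the name of an inhibitor of mTOR signalling. These 4 are thus coding genes in the later RefSeq annotation, but for CU693502.1 the symbol table differs and gives si:dkey-221l21.2.

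Abundance was concentrated in 2 lincRNAs. Per length, in the authors' FPKM (fragments per kilobase in every 1000000), CT027638.1 (ENSDARG00000096403) came first at a mean of 784 FPKM, and CR383676.1 (ENSDARG00000099970) second at 106 FPKM. The next were AL929185.2 at 84.4 FPKM, BX936337.1 at 49.8 FPKM and oip5-as1 at 47.8 FPKM, and the median member was at 8.77 FPKM. CR383676.1 is malat1 in the symbol table, in mammals an abundant RNA of nuclear speckles whose mature end lacks a poly(A) tail. Since only polyadenylated RNA was captured, how much of such an RNA was recovered is not known. This limits the level, rank and group comparison of malat1 here. The 2 leading lincRNAs held between 40.6 and 67.6% of the members' counts in a library. All 53 together held 0.215 ± 0.0179% of a control library's counts and 0.281 ± 0.0625% of a mutant library's (SD, n = 5 each). Without those 2 the shares were 0.114 ± 0.00697% and 0.116 ± 0.00534%.

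The series asked which genes differ between double mutants and controls, and no long noncoding member passed that test in edgeR on all libraries. In the edgeR quasi-likelihood fit without a replicate block, 0 of 53 had a Benjamini-Hochberg adjusted p under 0.05, where 0.00481% of all tested genes were called (1 gene). An unadjusted p under 0.05 was reached by 2 of the 53, CT027638.1 and si:ch211-39i2.2, against 1.95% of all tested genes. DESeq2, limma-voom and limma-trend without a block also called 0 of the 53. Once the replicate number was a block, 0 of 53 were called by edgeR, against 0.255% of all tested genes, and 10 of 53 had an unadjusted p under 0.05, against 10.5%. DESeq2 with the block, which called more genes in all than edgeR with the block, called 1 of the 53, CT027638.1 (adjusted p = 0.000575). In 0 of 53 were the 2 groups' ranges apart, against 0.466% of all tested genes. The mutant was higher in all 5 pairs for 6 members, against 5.62% of all tested genes, and lower in all 5 for 4 members, against 5.01%. In whole embryos, fewer cells of a type and less RNA per cell cannot be told apart.

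Fold changes of the members were small. By the sign of the log2 fold change 26 were higher in mutants and 27 lower, with a median of -0.0022, beside 0.0022 for all tested genes. In 29 of 53 the log2 fold change was within 0.1 of 0, and in 50 within 0.3. Of all 20802 tested genes, 12943 were within 0.1 and 19334 within 0.3. Of the 13227 genes of at least 5 CPM, 10021 were within 0.1 and 13093 within 0.3, so small changes were not particular to the members. The median size was 0.09 for the 53, 0.07 for all tested genes and 0.06 for all genes of at least 5 CPM, on the log2 scale. The 8 antisense members had a median log2 fold change of 0.08, and the 45 lincRNAs one of -0.01.

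**Figure D1:**
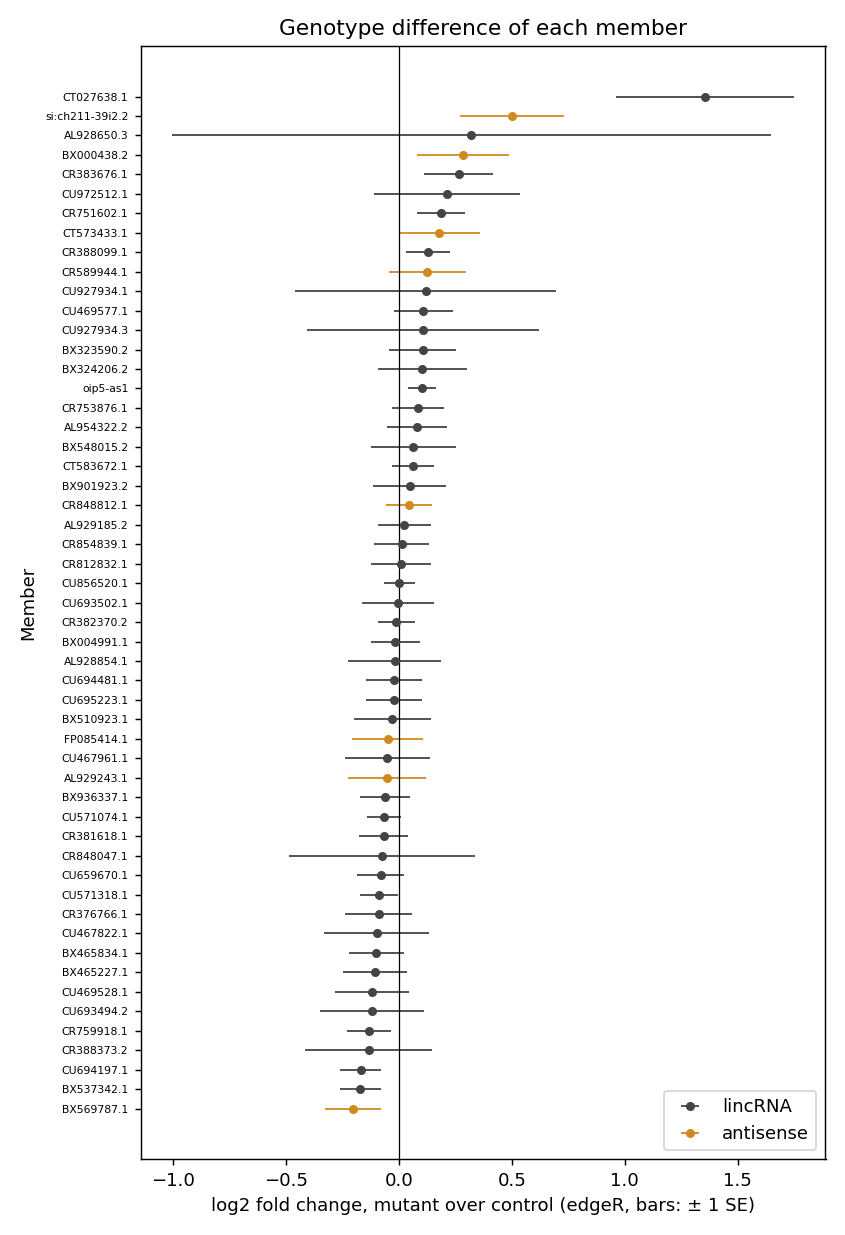
Genotype difference of each of the 53 members, as the log2 fold change of mutants over controls (horizontal axis) with bars of ± 1 SE from the unblocked edgeR fit, lincRNA in grey and antisense in orange. CT027638.1 stands alone at 1.36, 50 of the 53 lie within 0.3 of 0, and AL928650.3 has the widest bar.

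CT027638.1, the lincRNA of highest level per length, had the largest difference. In controls 1, 2, 3, 4 and 6 it was at 149, 387, 294, 271 and 465 CPM, and in the mutants of the same numbers at 332, 674, 446, 984 and 1568 CPM. The mutant was higher in all 5 pairs, but the ranges overlapped, since mutant 1 and mutant 3 lay below control 6. The means were 313 ± 120 and 801 ± 496 CPM (SD, n = 5 each), and the highest library held 10.5 times the lowest. The log2 fold change of CT027638.1 was 1.36 (SE 0.395), with edgeR giving an unadjusted p of 0.00479 and, over all tested genes, an adjusted p of 1.00. The exact permutation test over all assignments of the libraries, two-sided and without the pairs, gave p = 0.0397, 1 of 2 under 0.05 among the 53. That test was not run on all tested genes, so no background share stands beside this count, and it is not read as a result. DESeq2 with the replicate block called CT027638.1 (adjusted p = 0.000575), while edgeR with the block did not (log2 fold change 1.24, adjusted p = 0.254). Without mutant 6 the unblocked log2 fold change was 0.96. In 8 of 10 libraries its expected count was not whole, so part of its reads was shared with other loci. Its symbol-table name is si:dkey-153m14.1, and it had no match in the RefSeq table.

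CR383676.1 (malat1) varied less. Its levels in controls 1, 2, 3, 4 and 6 were 722, 683, 634, 595 and 894 CPM, and in mutants 910, 679, 630, 1110 and 908 CPM. The groups overlapped, and the pairs of number 2, 3 and 6 were nearly equal, while mutants 1 and 4 were above their controls. The log2 fold change of malat1 was 0.26 (SE 0.153; edgeR: unadjusted p 0.109, adjusted p 1.00), and it was 0.09 in the blocked fit without pair 4. The table lists 7 genes named mascRNA-menRNA, after the small RNAs cut from the ends of MALAT1 and its relative NEAT1 in mammals. All had 0 counts in all libraries, but only polyadenylated RNA was captured, so this cannot tell whether such small RNAs were made.

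The lincRNA oip5-as1 is the zebrafish Cyrano gene, in mammals an RNA that pairs with a microRNA and triggers its decay. It was at 183, 198, 191, 210 and 217 CPM in controls 1, 2, 3, 4 and 6, and at 201, 214, 211, 230 and 218 CPM in mutants. The spread was among the narrowest of the members, and the mutant was the higher one in all 5 pairs, by small steps. The means were 200.1 ± 13.6 and 214.9 ± 10.6 CPM (SD, n = 5 each), or 0.10 on the log2 scale (SE 0.0622; edgeR: unadjusted p 0.121, adjusted p 1.00). Oip5, the coding gene beside it, which serves in loading centromeric histone, was at 6.89 ± 1.21 and 7.01 ± 1.34 CPM (SD, n = 5 each; log2 fold change 0.02).

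Si:ch211-39i2.2 (ENSDARG00000104472), labelled antisense and later a coding gene, was the other member with an unadjusted p under 0.05. It was at 4.08, 5.96, 5.79, 3.98 and 9.65 CPM in controls 1, 2, 3, 4 and 6, and at 7.18, 9.08, 10.4, 6.23 and 8.38 CPM in mutants. Control 6, the library of lowest depth, was above 4 of the 5 mutants, and the mutant was higher in 4 of 5 pairs. The log2 fold change of si:ch211-39i2.2 was 0.50 (SE 0.229; edgeR: unadjusted p 0.0487, adjusted p 1.00), and the exact permutation p was 0.111. In the blocked edgeR fit it was 0.54 with an adjusted p of 0.102, and without pair 6 it was 0.73 with an adjusted p of 0.00343. Pair 6 was the only pair with the mutant lower (log2 ratio -0.20), so leaving it out favours a call. Of 24 alternatives, this fit alone called si:ch211-39i2.2.

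**Figure D2:**
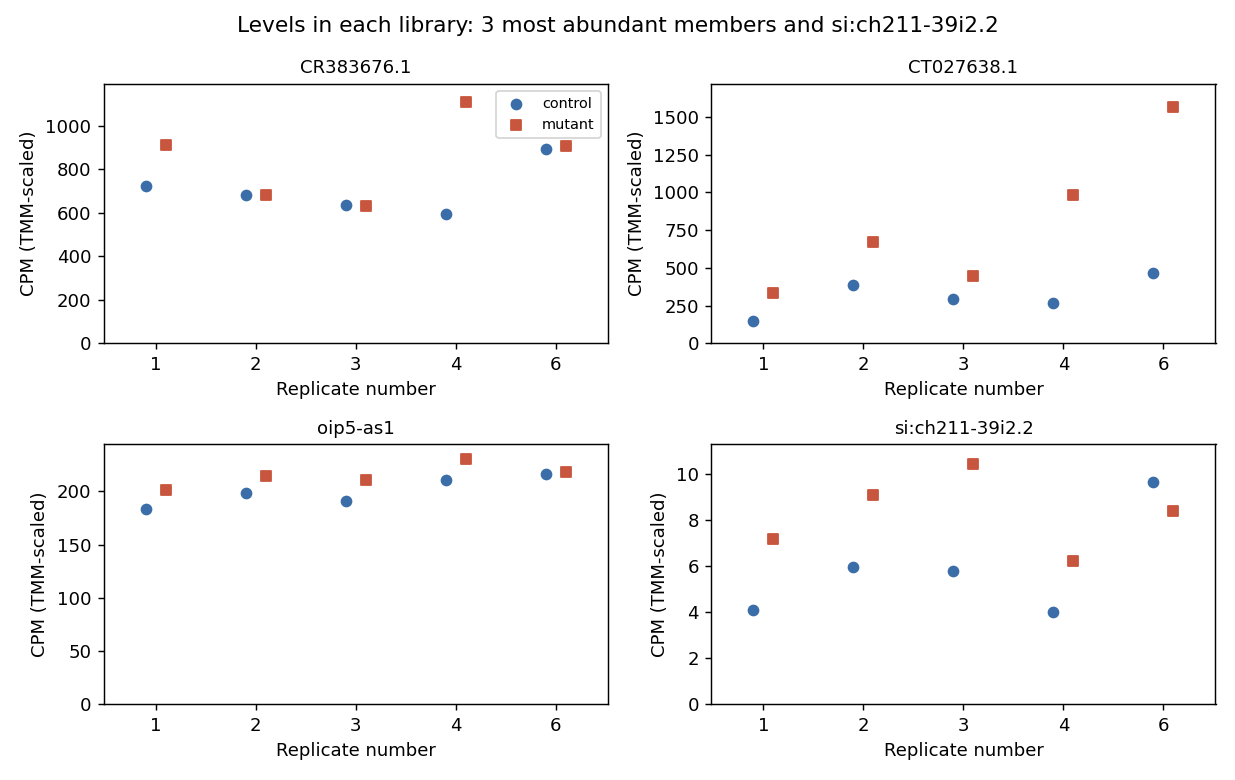
TMM-scaled CPM (vertical axes, from 0) in each library by replicate number (horizontal axes) for CR383676.1 (malat1), CT027638.1, oip5-as1 and si:ch211-39i2.2, with controls as blue circles and mutants as red squares. For CT027638.1 the mutant lies above the control at every number, with the widest gaps at 4 and 6, and for oip5-as1 all 10 libraries lie between 183 and 230 CPM.

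The remaining members with small unadjusted p-values differed by less. BX000438.2, an antisense gene, was at 11.0, 21.6, 18.9, 19.6 and 22.5 CPM in controls 1, 2, 3, 4 and 6, and at 14.3, 28.9, 25.7, 20.7 and 24.1 CPM in mutants. Each mutant was above its own control, and number 1 was the lowest in both groups. The log2 fold change of BX000438.2 was 0.29 (SE 0.205), and its adjusted edgeR p was 1.00 unblocked and 0.0952 blocked, the smallest blocked value of the 53. Without pair 4 the blocked value was 0.34 with an adjusted edgeR p of 0.0179. Pair 4 had the smallest difference of this gene (log2 ratio 0.083), and the fit without it called many more genes in all. Of 24 alternatives, that fit alone called BX000438.2. CR751602.1, called linc.0464, averaged 10.1 ± 1.09 CPM in control pools against 11.5 ± 1.31 CPM in mutant pools (n = 5 each, SD), which is 0.19 on the log2 scale (SE 0.106). It was higher in all 5 pairs, and its unadjusted edgeR p was 0.103 unblocked and 0.0166 blocked. The adjusted p of CR751602.1 in the blocked edgeR fit was 0.341.

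Lower in mutants by sign were CU694197.1, BX537342.1, BX569787.1 and CR759918.1, none of which passed the test. CU694197.1 averaged 29.8 ± 2.17 CPM in control pools against 26.5 ± 3.16 CPM in mutant pools (n = 5 each, SD; log2 fold change -0.17, SE 0.0907). It was lower in all 5 pairs, with a blocked edgeR p of 0.0152 unadjusted and 0.334 adjusted. BX537342.1 was at 7.30 ± 0.563 and 6.48 ± 0.273 CPM (SD, n = 5 each; log2 fold change -0.17, SE 0.091), lower in all 5 pairs, with an exact permutation p of 0.0317. BX569787.1, an antisense gene, averaged 7.51 ± 1.09 and 6.53 ± 0.787 CPM (n = 5 each, SD; log2 fold change -0.20). CR759918.1 was at 12.2 ± 1.13 and 11.2 ± 1.1 CPM (SD, n = 5 each; log2 fold change -0.13).

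Other members of high count did not pass the test, and their ranges overlapped. AL929185.2 was at 84.6 ± 12.3 and 86.0 ± 13.5 CPM, CU659670.1 at 53.1 ± 6.75 and 50.2 ± 6.45 CPM, and CU571318.1 at 44.8 ± 4.97 and 42.2 ± 2.88 CPM (SD, n = 5 each, controls first). CU571318.1 was lower in the mutant in all 5 pairs, with a log2 fold change of -0.09 (SE 0.0831). CR381618.1 (znf469) was at 52.6 ± 5.87 and 50.2 ± 7.88 CPM (SD, n = 5 each). CR812832.1, called linc.phox2bb after the gene of a transcription factor of autonomic neurons, was at 8.10 ± 1.46 and 8.18 ± 0.88 CPM (SD, n = 5 each; log2 fold change 0.01, SE 0.133). The phox2bb gene itself had a log2 fold change of -0.03 (SE 0.0829). Gas5, a growth-arrest transcript that hosts small nucleolar RNAs, has the biotype processed transcript (CU467861.1) and so is no member. It was at 16.2 ± 1.48 and 15.8 ± 3.44 CPM (SD, n = 5 each).

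Like the tested genes as a whole, the members differed far more by replicate number than by genotype. The edgeR F test of the 4 number terms called 34 of 53 (64.2%), against 43.3% of all tested genes and 52.1% of the 13227 genes of at least 5 CPM. Of the 280 tested lincRNA and antisense genes under 5 CPM, 29.6% were called. On log2 CPM, the numbers held a median of 78.1% of a member's sum of squares and the genotype 3.43%. These medians were 73.1% and 3.67% for all tested genes, and 76.8% and 3.58% for all genes of at least 5 CPM. In 52 of 53 the share of the numbers, which has 4 terms to the genotype's 1, was the larger, as it was in 19936 of all 20802 tested genes. In BX537342.1 the numbers held 35.0% and the genotype 52.8%. Among the 34 members called, number 4 was the highest for 15 (44.1%) and number 1 the lowest for 11 (32.4%). Among all 9008 genes called, these shares were 30.2% and 16.4%, and the difference was not tested. What a number stands for (a clutch, a day or a sequencing run) is not given, so these causes cannot be told apart.

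**Figure D3:**
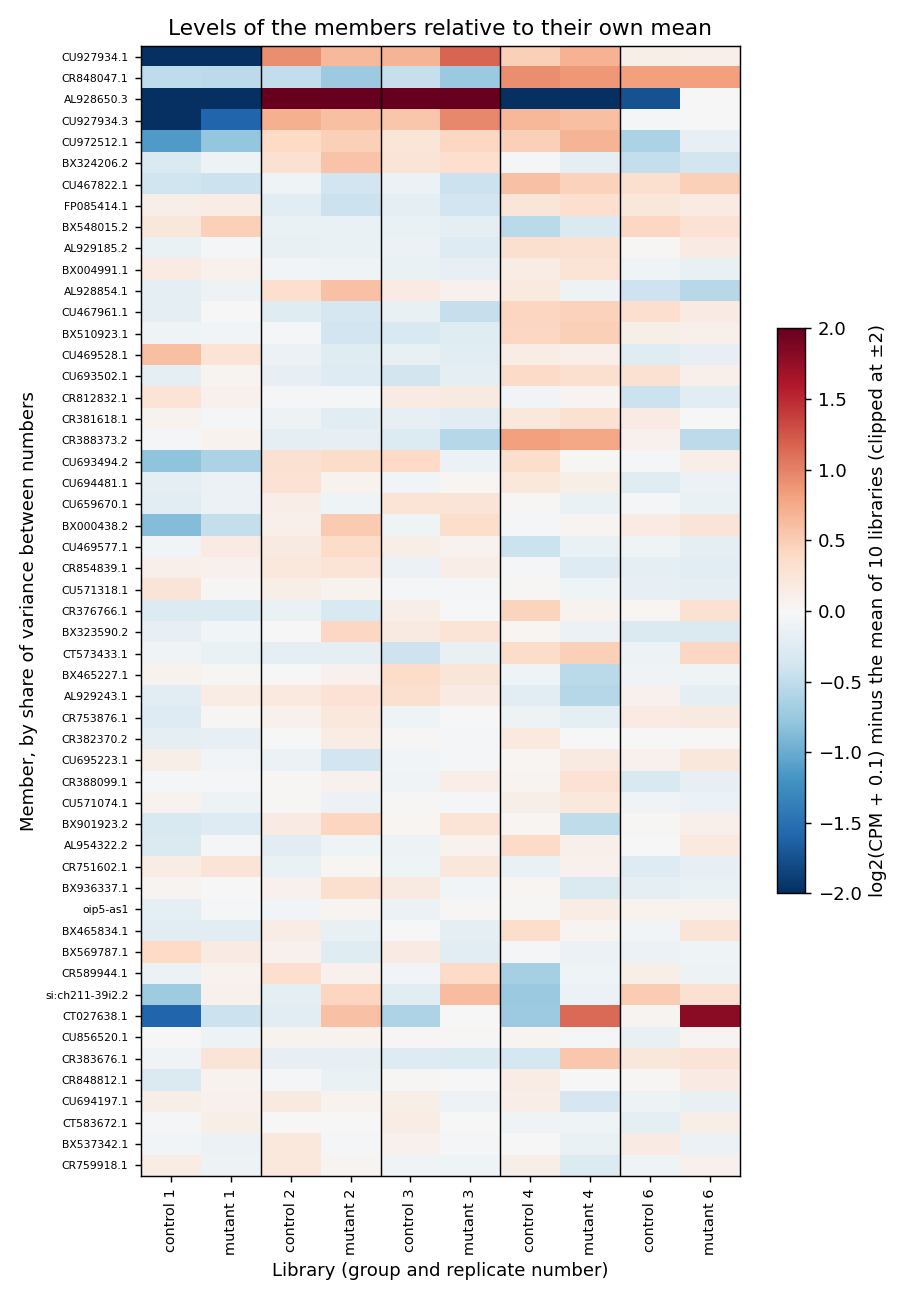
Level of each of the 53 members (rows, from the largest share of variance between numbers at the top) in each library (columns, control and mutant of a number side by side), as log2(CPM + 0.1) minus the member's mean over 10 libraries, with colours clipped at ± 2. In the upper rows both libraries of a number have the same colour, as in AL928650.3 at numbers 2 and 3 and CU927934.1 at number 1, and in CT027638.1 they differ.

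AL928650.3 (ENSDARG00000096599) was close to present or absent by number. Controls 1, 2, 3, 4 and 6 were at 0, 11.7, 10.3, 0 and 0.244 CPM, and mutants at 0.111, 13.7, 13.4, 0.114 and 1.04 CPM. Numbers 2 and 3 were high in both groups, and the other 6 libraries were near 0. The expected counts behind these values were 343 to 430 at numbers 2 and 3 and 0 to 29.8 elsewhere. This lincRNA reached the 5 CPM minimum through numbers 2 and 3 alone and was named for its share between numbers. Its edgeR number test (adjusted p 1.23e-09) therefore adds no support beyond these values, and the gene counts among the members called by number. By genotype the mutant was higher in all 5 pairs. The log2 fold change was 0.32 (SE 1.32) unblocked and 0.45 (SE 0.192) blocked, where edgeR gave an adjusted p of 0.424. Across all 20802 tested genes, 6 (0.0288%) had every library of numbers 2 and 3 at least 5 times as high as every other library, a limit set after its values were seen. The other 5 were tor4aa, CT573263.3, BX571954.2, si:dkey-146c18.2 and si:ch211-271g18.1. In the GRCz12tu table AL928650.3 is next to ptcd1, a gene of mitochondrial RNA processing, whose genotype log2 fold change was -0.03.

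CU927934.1 and CU927934.3, lincRNAs named after the same genomic clone, were both low at number 1. CU927934.1 was at 0.849, 9.68, 8.17, 7.05 and 5.46 CPM in controls 1, 2, 3, 4 and 6, and at 0.891, 8.0, 11.4, 8.26 and 5.42 CPM in mutants. CU927934.3 was at 0.959, 9.62, 8.69, 9.37 and 5.80 CPM in controls, and at 1.89, 8.99, 11.6, 8.94 and 5.80 CPM in mutants. Both libraries of number 1 lay far below the other 8 for each gene, and number 6 was next. The number test gave adjusted edgeR p-values of 2.24e-08 and 1.56e-07, and 0.00794 and 0.00464 once number 1 was left out. Both had whole counts in all 10 libraries. Another gene of the clone, CU927934.2, had 0 counts throughout. Of all tested genes, 25 (0.12%) had both libraries of number 1 at most 1 in 2 of every other library, a limit also set after the values were seen, and these lincRNAs are 2 of the 25.

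CR848047.1 (ENSDARG00000095906) was high at numbers 4 and 6 and low at numbers 1, 2 and 3. It was at 23.7, 23.8, 24.5, 64.0 and 59.7 CPM in controls 1, 2, 3, 4 and 6, and at 23.5, 20.4, 20.04, 61.8 and 59.6 CPM in mutants. The libraries fell at 2 levels with nothing between 24.5 and 59.6 CPM, whatever the genotype. The adjusted edgeR p of the number test was 2.1e-10, the smallest of the 53, and the genotype log2 fold change was -0.07 (SE 0.411). The mutant was lower in all 5 pairs, and the blocked value was -0.11 (SE 0.0541; edgeR, adjusted p 0.503). Of all tested genes 16 (0.0769%) had every library of numbers 4 and 6 at least 2 times as high as every other one, a pattern and limit taken from this gene's own values.

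CU972512.1 was low at numbers 1 and 6, with 5.75, 16.8, 15.1, 17.8 and 8.14 CPM in controls 1, 2, 3, 4 and 6, and 7.43, 17.8, 17.1, 20.5 and 11.3 CPM in mutants. Each mutant was slightly above its control (blocked log2 fold change 0.24, adjusted edgeR p 0.208), and the number test gave an adjusted p of 1.02e-07. CU467822.1, which lies next to mir9-6 in the GRCz12tu table, a gene of the neural microRNA miR-9, was at 32.5, 40.3, 39.3, 64.4 and 53.7 CPM in controls and 31.7, 32.8, 31.8, 59.3 and 59.3 CPM in mutants. Numbers 4 and 6 were again the high ones in both groups, and the adjusted edgeR p of the number test was 7.83e-07. CR388373.2 was near 10 CPM at number 4 in both groups (10.0 and 9.69 CPM), and its other 8 libraries lay between 3.74 and 5.94 CPM.

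**Figure D4:**
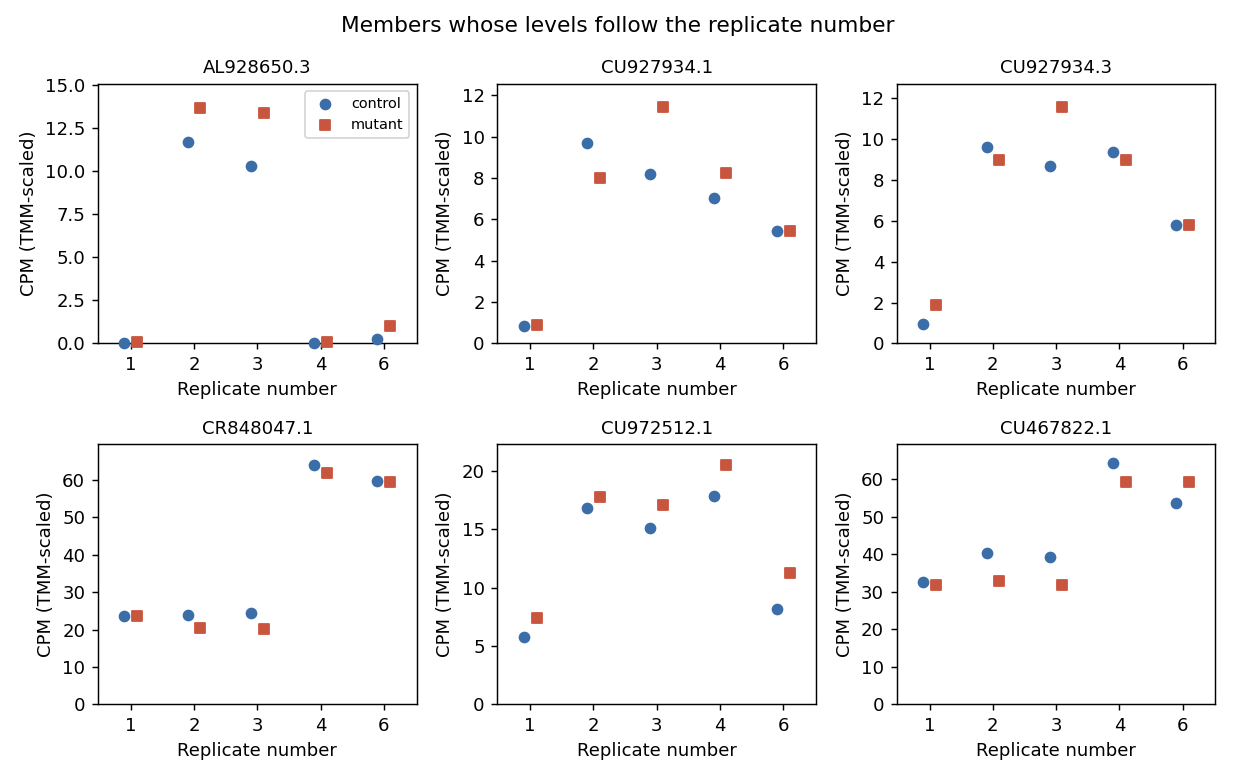
TMM-scaled CPM (vertical axes, from 0) by replicate number (horizontal axes) for 6 members with large differences between numbers, with controls as blue circles and mutants as red squares. AL928650.3 is near 0 at numbers 1, 4 and 6, CU927934.1 and CU927934.3 are lowest at number 1, CU972512.1 is low at 1 and 6, and CR848047.1 and CU467822.1 are high at 4 and 6.

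Genes beside the members showed no genotype call either. Of 32 nearest coding neighbours of the 16 members placed in the GRCz12tu table, 24 were tested. Unblocked edgeR called 0, against 0.00481% of all tested genes, and 0 had an unadjusted p under 0.05, against 1.95%. The blocked fit called 0, against 0.255%. With shares this low over all genes, 0 of 24 says little about the neighbours. The number test called 12 of these 24, beside 43.3% of all tested genes. CR751602.1 lies beside nr2f1a, a gene of atrial identity in the zebrafish heart, which had a log2 fold change of -0.0037. AL954322.2 lies beside tbx2b, a transcription factor gene of the atrioventricular canal, with -0.05. BX323590.2 lies between marchf1, which did not pass the filter, and apela, the gene of a peptide ligand of the apelin receptor, with -0.03. BX465834.1 lies beside mir9-5, and mef2cb, a muscle transcription factor gene near it, had -0.01. AL954322.2 itself was at 6.07 ± 1.19 and 6.42 ± 0.502 CPM, BX323590.2 at 6.10 ± 0.773 and 6.58 ± 1.37 CPM, and BX465834.1 at 24.5 ± 3.82 and 22.9 ± 3.25 CPM (SD, n = 5 each, controls first).

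Genes that make, bind or degrade noncoding RNA were listed apart from the members. Of 55 listed, 48 were tested, and unblocked edgeR called 0 for genotype, against 0.00481% of all tested genes. An unadjusted p under 0.05 was reached by 0, against 1.95%. With the block 0 were called, beside 0.255% of all tested genes, and 9 had an unadjusted p under 0.05, beside 10.5%. By sign 15 were higher and 33 lower in mutants, beside 10557 and 10245 of all tested genes. Of all genes with at least 5 CPM, 6344 were higher and 6883 lower, so these also leaned to lower. All tested genes of the list but exosc3 (4.97 CPM) reached that level, and the difference in lean was not tested. The list's median on the log2 scale was -0.03, in a range of -0.19 to 0.14. The 13 tested genes of the nuclear exosome, which trims and degrades nuclear RNA, had a median of -0.03, and the 9 of nonsense-mediated decay a median of -0.06. The 8 tested genes of small nucleolar RNA particles had the lowest median of the list's classes, -0.07, with 1 higher and 7 lower. For malat1 biology, mettl16, a methyltransferase that binds the end of MALAT1 in mammals, was at 5.41 ± 0.764 and 4.94 ± 0.983 CPM (SD, n = 5 each). The number test called 34 of the 48, beside 43.3% of all tested genes and 52.1% of those of at least 5 CPM.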

How the data were processed

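RNA was measured in 5 mutant and 5 control pools. Per the labels' protocols, polyA capture and a strand-specific kit were used, with paired-end sequencing. The submitters' processing notes name STAR 2.5.3a, RSEM 1.3.0, BWA 0.7.12-r1039 and bedtools, and the build GRCz10, without roles. The authors deposited, per gene and library, an expected count (reads estimated to come from the gene, often not whole) and a log2 value, read from the values as log2(FPKM + 0.1), since its lowest value was -3.32 and 99.97% of values had 2 decimals when undone. In a library, 17.8 to 21.6% of expected counts were not whole.

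Counts were rounded and fitted with edgeR 4.0.16 (R 4.3.3): filterByExpr, TMM scaling, robust quasi-likelihood tests, two-sided, with Benjamini-Hochberg adjustment over all 20802 tested genes and a threshold of 0.05. Tested genes held 99.94 to 99.95% of counts; the step was tested on simulated data. CPM in the text is TMM-scaled except for the 5 CPM minimum and its alternatives, levels beside it, the members' range and median, and the lowest marker value. Sums of squares used log2 CPM with a prior count of 2. An SE is the size of the log2 fold change over the square root of F in edgeR's quasi-likelihood test. Same-number libraries correlated at 0.54 to 0.60 and different-number libraries at -0.47 to 0.51, over all tested genes, so the numbers were read as pairs. The highest different-number values, 0.50 and 0.51, were between numbers 2 and 3. Over the members alone the 2 ranges overlapped, at 0.69 to 0.97 and -0.81 to 0.94. The block lowered the biological coefficient of variation from 17.6 to 6.94%. P-values of the unblocked fit measure the spread between pools, with the differences between numbers included. Those of the blocked fit measure the spread left once the numbers are taken out. DESeq2 1.42.0 and limma 3.58.1 were alternatives.

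Members and lists were chosen with earlier results of these data known. Members named are the 8 of highest mean CPM, the 10 of smallest p, the 5 of largest number share, the 3 just above the minimum, and named homologues or stems of coding genes. The number-test p-values of those 5, and the unadjusted p-values of those 10, thus describe what they were picked for. Other members are named for a neighbour or later annotation. The RefSeq table is of another build, so it gave only names and order, and no coordinates or sequences are printed.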

Additional observations from a re-analysis of the deposited data

Results flagged for a closer look

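A single library stood apart from the other 4 of its group in 4 of 52 groups of values examined, where chance gives about 2.6. CU659670.1 was at 61.7 CPM in mutant 3, and its control of the same number, at 62.3 CPM, was also the highest of its group. CU694197.1 was at 26.0 CPM in control 6. CR388373.2 was at 10.0 CPM in control 4, beside 9.69 CPM in mutant 4. The total count of control 6, 21.5 M (1000000 counts), was below those of the other controls.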

How the results depend on the processing

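With the replicate block, edgeR called 53 genes in all instead of 1, and 0 of the 53 noncoding members as before. DESeq2 called 6 genes and 93 with the replicate block, 1 of them a member (CT027638.1). Limma-trend called 2 genes on log2(FPKM + 1) and 0 on log2(FPKM + 0.1). Leaving out a library or a pair gave 0 to 365 genes, 0 to 1 members and 0 to 1 genes of the RNA-processing list, over unblocked and blocked fits. With the replicate block, edgeR called 17 genes without pair 1, 17 without pair 2, 21 without pair 3, 365 without pair 4 and 79 without pair 6. The cause was not tested. The number of members was 111 at a minimum of 2.5 CPM, 33 at 10 CPM and 81 at 5 FPKM. The median log2 fold change of the members stayed between -0.02 and 0.03. The number test called 26 to 34 members in all its alternatives, a range given without the shares of all tested genes and so not set against them. Of 23 named members, 14 kept their direction in every alternative. The other 9 changed sign only when a library or pair was left out, with log2 fold changes of -0.055 to 0.11 for AL929185.2 (-0.0074 without pair 1 and -0.0086 without pair 6 in blocked fits), -0.24 to 0.046 for CU467822.1, -0.17 to 0.40 for CU927934.1 (-0.016 without pair 3, blocked), -0.34 to 0.17 for CR848047.1, -0.33 to 1.07 for AL928650.3, -0.18 to 0.35 for CU927934.3, -0.078 to 0.089 for CR812832.1 (-0.011 without pair 4 and -0.018 without pair 6, blocked), -0.21 to 0.10 for AL928854.1 (0.050 without pair 4, blocked) and -0.42 to 0.10 for CR388373.2. AL928650.3 had no value in blocked fits or number tests without number 2 or 3, since it then failed the filter. For AL928650.3, DESeq2 with the replicate block gave 1.53 and limma-voom 1.69, and neither called it. At the lowest depth, 5 CPM was about 108 counts, so counting error is part of the spread of the lowest members.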

Other observations

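Among the 333 lincRNA and antisense genes that passed the filter, edgeR with the replicate block called 1, a share near the 0.255% of all tested genes. This was CR926459.1 (ENSDARG00000069404), which is antisense in the deposited table and lies under the 5 CPM minimum. The symbol table gives this ID as pln1, a phospholamban gene; phospholamban is the small membrane protein that restrains the calcium pump of the heart muscle's internal store. Its level averaged 2.94 ± 1.22 CPM in control pools against 1.11 ± 0.343 CPM in mutant pools (n = 5 each, SD). The blocked log2 difference was -1.34 (edgeR, adjusted p 0.0113 over all tested genes). In the unblocked fit its adjusted edgeR p was 1.00 at an unadjusted p of 0.000666.

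The antisense gene birc6-as2, which has a mammalian counterpart by name and lies under the minimum, averaged 2.40 ± 0.287 CPM in control pools against 2.54 ± 0.366 CPM in mutant pools (n = 5 each, SD; log2 fold change 0.08).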
